A study of Mus musculus with 2 samples.

Results

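The 4 mouse Hox clusters were followed by 305 tiling-array probes, out of 90526 non-control probes on the array. A probe was taken when its start lay inside one of 4 windows of genome build mm8. The windows were chr6:52000000-52300000 for Hoxa with 94 probes, chr11:95950000-96250000 for Hoxb with 64 probes, chr15:102700000-102900000 for Hoxc with 47 probes and chr2:74350000-74700000 for Hoxd with 100 probes. The array files give positions and no gene names, so places are given by window and coordinate. The exon, intron or gene at each place was not determined here.

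The samples were genomic DNA from the hypothalamus of females at birth (P0) and at 21 days of age (P21, around weaning). At both ages the strain was given as a mixture of C57BL/6J with C3H/HeJ, and the genotype as non-agouti. Each of 2 two-colour arrays, A and B, carried DNA of both ages. On array A the red dye (Cy5) marked P0 and the green dye (Cy3) marked P21, and on array B the dyes were exchanged. The arrays are called biological replicates in the design text, which gives neither the number of animals nor any pooling. DNA was measured, so the labelled tissue could not be checked against expressed markers. The tests rest on the spread between these 2 arrays, which limma combines with the spread shared by all intervals of the array, and not on a known number of animals.

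As general background, Hox genes encode homeodomain transcription factors that give cells along the body axis their regional identity. They lie side by side in clusters, and the order of the genes follows the order in which they are used from head to tail. The hypothalamus lies in the forebrain, in front of the part of the neural tube where Hox genes are classically active. In tissues that do not use them, the clusters are typically held silent by Polycomb proteins, and many of their CpG-rich stretches carry little DNA methylation.

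The assay read methylation at CCCGGG, the site of both enzymes used. SmaI cuts the site only when it is unmethylated and leaves blunt ends. XmaI then cuts the methylated copies and leaves sticky ends, to which adaptors are joined for amplification. Values are log2 ratios of P21 over P0 signal, so a positive value means more amplified signal at P21. They are not methylation percentages.

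The following stretches show what such a site looks like at 3 Hox promoters, because the site decides which DNA the assay can report. Each is 60 bases from the RefSeq promoter table (GRCm38.p6), written 5′ to 3′ on the strand of the gene, with the CCCGGG in capitals.

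Hoxa6: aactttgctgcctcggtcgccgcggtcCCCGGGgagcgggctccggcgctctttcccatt

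Hoxb1: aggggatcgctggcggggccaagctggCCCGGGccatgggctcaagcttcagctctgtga

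Hoxd11: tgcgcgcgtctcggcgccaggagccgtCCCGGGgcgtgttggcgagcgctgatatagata

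The site began 131 bases upstream of the listed start in Hoxa6, 34 bases in Hoxb1 and 153 bases in Hoxd11. CCCGGG reads the same on both strands. The table covers 22 of 39 Hox genes, with 24 windows from 250 bases before to 50 bases after a start. CCCGGG was found in 8 of these 24 windows (33.3%), against 4436 of 32851 promoter windows in the whole table (13.5%). A single Hoxc gene is in the table, so these sequences show mainly Hoxa and Hoxd. They are of another assembly than the array and were matched to no probe.

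Probes at most 500 bp apart were joined into intervals, which gave 52 intervals in the Hox windows. Of these, 47 held at least 2 usable probes and were tested, 13 in Hoxa, 11 in Hoxb, 8 in Hoxc and 15 in Hoxd. The other 5 were single probes. An outlier flag on array B removed 4 of the 305 probes, which left 301 with a value and 296 in tested intervals. Signal was well above background at both ages on both arrays for 254 of the 305 probes (83.3%), compared with 92.1% over the whole array. A single tested interval, in Hoxd at chr2:74548835, had no probe well above background at either age.

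Of the 47 tested Hox intervals, 4 (8.51%) were called higher at P21 (limma, Benjamini-Hochberg over all 18761 tested intervals of the array, adjusted p under 0.05). The background was 7.65% of intervals called higher over the whole array, so the share in the windows was near that of the array. No Hox interval was called lower by limma (0 of 47), against a background of 3.99%, a difference that was not tested. At an unadjusted p under 0.05, limma gave 6 higher and 0 lower Hox intervals, against 12.1% higher and 12.6% lower over the array. The 4 higher intervals comprised 2 in Hoxa and 2 in Hoxc, and none of the intervals in Hoxb or Hoxd passed. The mean over both arrays was smaller than 0.5 in size for 43 of the 47 intervals (91.5%), against 85.6% of intervals on the array. Such a mean can also be small because the arrays disagree. The same sign on both arrays was found in 46.8% of the Hox intervals, against 65.1% over the array.

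The Hoxc window held the sharpest rise. The 4 probes of chr15:102846563-102847189, a span of 627 bp, gave an interval log2 ratio of 3.40 on array A and 3.22 on array B. Its mean was 3.31 ± 0.13 (SD, n = 2 arrays), or 9.93-fold more signal at P21, with an adjusted p of 0.000201 (limma). This was the only Hox interval past a rule of size (a mean of at least 1 in size, and at least 1.5-fold on each array in the same direction), which 3.71% of intervals on the array passed upward and 0.501% downward. Its rank by mean was 6 of 18761 intervals.

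Each of the 4 probes was raised on both arrays. In order of position, their log2 ratios on array A were 2.60, 3.52, 3.77 and 3.72. On array B they were 1.97, 3.80, 3.55 and 3.55. The first probe was thus the lowest of the 4 on both arrays, and the other three lay within a narrow range. P0 signals, in linear units, ran from 222 to 444 on A and from 254 to 433 on B, all well above background. At P21 the signals ran from 1344 to 6060 on A and from 992 to 5077 on B.

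The nearest interval upstream, chr15:102841884-102844054, was also called higher, with 16 probes over 2171 bp. The interval's log2 ratios were 0.43 (array A) and 0.86 (array B), a mean of 0.64 ± 0.30 (SD, n = 2 arrays; limma adjusted p = 0.0426). The interval was not uniform, and the division that follows was made after its values were seen and has no test of its own. The last 4 probes, chr15:102843707-102844054, lay between 1.88 and 2.09 on array A and between 1.86 and 2.11 on array B. Their mean was 1.97 ± 0.021 (SD, n = 2 arrays), or 3.92-fold. The first 12 probes averaged -0.08 on A and 0.48 on B.

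The step between the 12th and the 13th probe fell within a gap of 131 bp. Across it the mean of the probes rose by 2.03 on array A and by 1.5 on array B. The first 12 probes themselves fell into a pair of groups. The first 8 averaged -0.24 on array A and 0.62 on array B. There the arrays pointed in opposite directions. Probes 9 to 12, next to the gap, averaged 0.24 on A and 0.20 on B and lay above 0 on both arrays. The last 4, beyond the gap, averaged 1.96 on A and 1.99 on B. The mean of the whole interval thus joins stretches with unlike values.

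From the first to the last raised probe the Hoxc stretch covered 3483 bp, with no probe in the 2508 bp between the raised end of the 16-probe interval and the higher interval. The higher interval exceeded those last 4 probes by 1.45 on array A and by 1.23 on array B. The next probe downstream lay 9116 bp away, at chr15:102856306, and was a lone dim probe at 0.00 on A and -2.49 on B. On array A it was well above background at neither age, so its 0.00 does not measure an absence of change. A ratio of exactly 0 can stand at dim probes with unequal signals. The probe at chr11:96047282 had 0.00 on array B, with signals of 5.75 at P21 and 6.55 at P0. The interval after the lone probe, chr15:102857019-102857919, was the lowest tested interval of Hoxc, at 0.03 on array A and -0.60 on array B, and was not called (limma adjusted p = 0.394). Its 0.03 includes a probe at exactly 0. No probe placed the downstream edge of the rise more closely.

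Tested one by one over all probes of the array, 8 of the 301 Hox probes were called, all 8 higher at P21 (limma adjusted p from 0.0385 to 0.0435). The background was 2.10% of probes called higher and 0.0925% called lower. The 8 were the last 4 probes of the 16-probe Hoxc interval and the 4 probes of the interval after it. No probe of Hoxa, Hoxb or Hoxd was called in that test. All 8 were also called under 9 of 11 other ways of processing, together with 0 to 12 further Hox probes. Among the 11, no centring and the authors' table repeat nearly the same ratios and are no independent checks. With a normexp background fitted on all spots, 3 of the 8 were called after loess and 5 after median centring. With normexp fitted without flagged spots, all 8 were called after either.

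Outside the raised stretch the tested Hoxc intervals had small means over both arrays. The 3 intervals from 102750000 to 102799999 averaged 0.14 on array A and -0.069 on array B, a mean of 0.036. The 8 intervals together averaged 0.59 on array A and 0.39 on array B, a mean of 0.49 ± 0.14 (SD, n = 2 arrays). Without the highest interval the values were 0.19 and -0.01, and the mean fell to 0.091. Without the 2 highest the mean was -0.0014, and the median of the 8 intervals was 0.074. Most of the cluster mean thus came from a single short stretch.

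Hoxa had 2 called intervals, both with smaller values than the Hoxc stretch. The first, chr6:52093437-52095111, held 12 probes, all well above background at both ages on both arrays. The 2 arrays gave log2 ratios of 0.57 (A) and 0.86 (B), a mean of 0.71 ± 0.21 (SD, n = 2 arrays; limma adjusted p = 0.0221). Of its probes, 10 of 12 were above 0 on both arrays. The first 4 probes were higher on array A, with a mean of 1.13 against 0.71 on array B, and the last 8 were higher on array B, with 0.29 against 0.93. That division was also made after the values were seen.

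The second, chr6:52138014-52138365, held 4 dim probes and gave 0.61 on array A and 0.65 on array B. Its mean was 0.63 ± 0.025 (SD, n = 2 arrays; limma adjusted p = 0.0250). By position its probes gave 0.40, 0.33, 1.01 and 0.71 on array A and 0.92, -0.13, 1.20 and 0.61 on array B, so 3 of 4 were above 0 on both. P0 signals were between 23.9 and 118 on A and between 26.1 and 61.6 on B, and 1 of the 4 probes was not well above background at P0 on array B. This call depended on the background correction. With normexp fitted on all spots, the mean was 0.13 after loess and -0.27 after median centring. With normexp fitted without flagged spots it stayed positive, at 0.30 after loess and 0.31 after median centring, but was not called (limma adjusted p = 0.0635 and 0.526).

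The 13 Hoxa intervals averaged 0.10 on array A and 0.37 on array B, a mean of 0.24 ± 0.19 (SD, n = 2 arrays). Of these, 7 were above 0 on both arrays and none below 0 on both. The lowest tested interval, chr6:52189478-52190732 with 8 probes, had -0.18 on array A and 2.37e-05 on array B and was not called (limma adjusted p = 0.759). An interval of 8 probes just upstream of the first called one, chr6:52088122-52089726, showed how the arrays could differ. It gave -0.09 on array A and 0.86 on array B, and B exceeded A at 8 of 8 probes.

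Along the Hoxa window the values are given in steps of 50 kb. The mean of the intervals over both arrays was -0.071 in the first step, which held a single interval, 0.55 in the second with 2 intervals and 0.31 in the third, with 4. It was 0.12 in the fourth with 5 intervals and 0.19 in the fifth with a single interval, and the last step held none. The arrays differed on the highest step. On array A it was the third, at 0.34, above the second (0.24), and the fourth was at -0.031. On array B it was the second, at 0.86, and the third (0.29) lay below the fifth (0.34). Both called intervals lay in the second and the third step.

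No interval of the Hoxb window passed the test. Its 11 intervals averaged -0.04 on array A and 0.11 on array B, a mean of 0.037 ± 0.10 (SD, n = 2 arrays). The highest, chr11:96168857-96170651 with 8 probes, had 0.28 on array A and 0.41 on array B (limma adjusted p = 0.167). Its first 4 probes averaged 0.57 and 0.88, and its last 4 averaged -0.01 and -0.06. With gaps of at most 250 bp in place of 500 bp, those first 4 probes formed an interval of their own with a mean of 0.72, and that interval was called (limma adjusted p = 0.0189).

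The lowest tested Hoxb interval, chr11:96047096-96047494 with 4 probes, had -0.09 on array A and -0.47 on array B (limma adjusted p = 0.314). Of the 11, 3 intervals were above 0 on both arrays and 3 below 0 on both. The values therefore lay on both sides of 0. By position, the 50 kb step from 96050000 held a single interval of 13 probes with a mean of -0.26, and the step from 96150000 held 2 intervals with a mean of 0.25, so low and high values lay within the same window.

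The Hoxd window held the most probes, and none of its 15 intervals was called. They averaged 0.03 on array A and 0.16 on array B, a mean of 0.097 ± 0.092 (SD, n = 2 arrays). The highest, chr2:74450611-74450720 with 2 probes, had 0.27 on array A and 0.56 on array B (limma adjusted p = 0.119). Another probe of this interval was left out for its flag on array B, and with flagged spots kept the mean fell from 0.42 to 0.25, below the 0.36 of chr2:74527904-74529205. The lowest tested interval, chr2:74522665-74522913 with 3 probes, had -0.17 and -0.25 (limma adjusted p = 0.388). Between 74450000 and 74549999, where 13 of the 15 intervals lay, the mean was 0.14 in the first 50 kb and 0.058 in the next. The mean over both arrays thus stayed below 0.5 in size in every tested Hoxd interval. Array B alone exceeded 0.5 in some of them, as with the 0.56 of chr2:74450611-74450720.

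The single probe with the lowest mean in the 4 windows was also in Hoxd, and is named after its values were seen. The probe at chr2:74498664-74498723 had -2.46 on array A and -0.88 on array B and was not called (limma adjusted p = 0.204). Its P21 signal was 5.52 on A and 19.5 on B, not well above background on either. The interval of 19 probes around it had a mean of 0.095.

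The 2 arrays often differed from each other in the Hox windows. The same sign on both arrays was found in 22 of the 47 intervals (46.8%), 17 positive and 5 negative, against 65.1% over the array. The median size of the difference between arrays was 0.34 in the windows and 0.20 over the array. Array B exceeded array A by 0.5 or more in 10 of 47 intervals (21.3%) against 5.56% of the array's intervals, and in 9 of those 10 array A was below 0. The reverse held for 4 of 47 intervals (8.51%) and 7.06% of the array's intervals. Of the 10, 4 lay in Hoxa, 3 in Hoxb, 3 in Hoxd and none in Hoxc. These shares were not tested against the array's.

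These differences ran through whole intervals. In Hoxa, the 9 probes of chr6:52174841-52176605 gave an interval value of -0.11 on array A but 0.56 on B, which was higher at 9 of 9. In Hoxd, the 8 probes of chr2:74527904-74529205 gave -0.06 and 0.77, with array B higher at 7 of 8. As the dyes were exchanged, array B minus array A is the sum of the red over green log ratios of both arrays. A dye effect and a difference between the animals of the 2 arrays cannot be told apart here.

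Across the 47 Hox intervals the Pearson correlation between the arrays was 0.712, and without the highest interval it was 0.124 (n = 46). It was 0.726 over the 18761 intervals of the array with none left out, which is to be set beside the 0.712 and not the 0.124. Over the 301 probes it was 0.456, and without the 8 called probes it was -0.012 (n = 293), whereas over the array's probes without the called ones it was 0.399 (n = 87761). These values describe probes that share arrays. Neighbouring probes may also share fragments, which was not determined here. Outside the called Hoxc probes, the order of the Hox probes on one array had almost no relation to their order on the other.

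The 1 Mb on either side of each window was taken as a comparison by position. Among the tested intervals there, 18 around Hoxa, 48 around Hoxb, 30 around Hoxc and 7 around Hoxd, 11 were called higher (10.7%) and 5 lower (4.85%). The same sign on both arrays was found in 67.0% of them. Called intervals in the flanks comprised 2 higher and 1 lower around Hoxa, 6 and 3 around Hoxb, 1 and 1 around Hoxc, and 2 and 0 around Hoxd. The flanking intervals averaged -0.015 around Hoxa, 0.065 around Hoxb, 0.069 around Hoxc and 0.44 around Hoxd. The highest interval in the Hoxc flanks had a mean of 3.11, near the 3.31 of the highest interval inside that window. The shares inside and outside the windows were not tested against each other.

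Long intervals were common in the Hox windows. More than 8 probes were joined in 9 of 47 Hox intervals (19.1%), against 6.18% of all intervals, a difference that was not tested. Of these 9, 2 were called higher, the 16-probe interval in Hoxc and the 12-probe interval in Hoxa. Array-wide, 11.2% of the 1159 intervals of that length were called higher.

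Of the 4 called intervals, the highest Hoxc interval passed the threshold under 14 of 14 other ways of processing that gave a test, with a mean between 2.32 and 3.32. The 16-probe Hoxc interval and the 12-probe Hoxa interval each passed under 11 of 14, and the dim Hoxa interval under 9 of 14. Single probes entered these tallies as the median adjusted p of an interval's probes. With gaps of at most 250 bp the Hoxc entry held another set of probes, with a mean of 0.83. The 2 long intervals kept a positive mean in each of the 14, at 0.39 or more in Hoxc and 0.42 or more in Hoxa. The dim Hoxa interval ranged from -0.27 to 0.71. Some of these ways could hardly differ from the main fit, as the ratios already had medians of 0 and the authors' table holds the same ratios. The mean of the highest Hoxc interval was also unchanged with flagged spots kept, other gap lengths, other limma settings and single probes. The tallies are thus not counts of independent checks.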

How the data were processed

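The deposited scanner files hold log10 ratios of red over green, processed intensity on a linear scale and 0 or 1 flags. Per the file headers they were written by version 10.5.1.1 of Feature Extraction on build mm8, with background subtracted and dyes scaled linearly, whereas version 9.1.3.1 is given by the submitters' processing notes. The authors' deposited table holds the same log10 ratios turned to P21 over P0, with a largest difference of 0.00496 and medians of 0, which settles scale, centring and direction. Per the labels, 500 ng of DNA was digested and 2 µg labelled.

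The scanner's log10 ratios were converted here to log2, given the direction P21 over P0 and median-centred by array. Control spots and spots flagged as outliers on either array were left out. Probes at most 500 bp apart formed intervals, whose mean was tested against 0 with limma 3.58.1 in R 4.3.3 (lmFit and eBayes, two-sided, 1 residual degree of freedom) over all 18761 intervals with at least 2 probes. With 2 arrays no exact permutation test of a single value can go below a p of 0.5, so none was run, and the number of arrays limits the precision. The script was tested on simulated intervals. Both arrays lie on 1 slide, so slide is no batch.

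Named intervals were those past the adjusted threshold or the size rule, and the highest and lowest of each window. Alternatives covered the background correction, loess, centring, flags, dim probes, gap length, limma settings, single probes and each array left out. The windows, members and lists were chosen with earlier results of these data known.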

Additional observations from a re-analysis of the deposited data

How the results depend on the processing

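Under the alternatives run, the count of Hox intervals called higher stayed within 1.5 times of 4 apart from 1 with normexp and median centring, whether fitted on all spots (1.48% called higher over the array) or without flagged spots (5.51%), and 2 when intervals with a called probe were counted. No Hox interval was called lower under any of them. The array's share of lower calls ran from 0.0107% with normexp and median centring, and 0.757% with trend and robust settings, to 6.91% with probes well above background. With so few Hox intervals, 0 lower calls says little under the first settings and was not tested against the array's share under the others. Of the Hox probes, 13 were called with loess (6.89% over the array), 3 with normexp and loess (3.02%), 5 with normexp and median centring (1.72%), 13 with loess after normexp fitted without flagged spots (8.33%), and 20 with probes well above background in both channels (9.93%), of which 1, in Hoxb, was lower. With normexp on all spots and median centring the cluster means were -0.13 in Hoxa, -0.21 in Hoxb, 0.097 in Hoxc and -0.23 in Hoxd, against 0.19, 0.063, 0.46 and 0.11 when fitted without flagged spots, and the share of flanking intervals called higher was 0.971%. With normexp and loess that share was 3.88% and the Hoxc mean 0.35. The Hoxc mean was 0.074 as a median over intervals and 0.091 without its highest interval. Signs turned with normexp on all spots and median centring at chr11:96168857 (-0.27), chr2:74450611 (-0.21) and chr6:52138014 (-0.27), but not when fitted without flagged spots (0.25, 0.36 and 0.31), and with normexp and loess at chr15:102857019 (0.0025). With single arrays that last interval ranged from -0.60 to 0.026, and chr6:52189478 from -0.18 to 2.37e-05. Normexp fitted on all spots put the background mean of array B at -271 in red and -548 in green, against -3.29 and 12 when fitted without flagged spots, an alternative chosen after seeing the data, as was the Hoxc mean without its highest interval. The highest Hoxc interval was 2.32 with normexp and loess and 3.04 with that second fit. On array B the lowest background-subtracted green value was -83047 over all spots and 10 without flagged spots. The ratios pair the ages within each array, so the test against 0 is itself the paired one. Dim probes limit what can be said: 83.3% of Hox probes were well above background throughout.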
